A study of Mus musculus with 9 samples.

Results

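The homeobox genes described here are 41 mouse transcription factor genes, taken by name from a count table of 54532 Ensembl genes. They are a chosen part of the homeobox family, without the factors that mark the primitive streak and pluripotency, and every name was found in the table. A further 194 genes marked as homeobox in the table, some streak and pluripotency factors among them, are not in the set. RNA was sequenced from 9 libraries of cultured mouse cells of the strain Sv129 x GOF/GFP F1, 3 from each of 3 stem cell types that all grew on fibronectin with Activin A. ABSC, which the labels call trophoblast stem cell-like, grew in Activin A and BMP4 and were collected at passages 25 to 30. ALSC were collected at passages 20 to 25 and grew with leukaemia inhibitory factor (LIF) added to Activin A; the protocol prints this recipe under the name of the other medium, and the recipe is followed here. AFSC, which the labels call epiblast stem cell-like, came from blastocysts, grew in Activin A and bFGF, and were collected at passages 15 to 20. ABSC and ALSC were made from AFSC by changing the medium, and passage and cell type cannot be told apart. The labels do not say that the 3 libraries of a type came from separate cultures, so p-values measure the spread between these libraries, which may be technical.

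Homeobox genes encode proteins with a homeodomain, a folded DNA-binding domain that reads short AT-rich sites. The TALE class holds the Meis, Pbx, Pknox, Tgif and Irx genes. Of these, Meis, Pbx and Pknox proteins often bind DNA together with one another or with Hox proteins. In the mouse embryo after implantation, BMP signals switch on homeobox genes such as Msx1 and Msx2 in posterior and extraembryonic tissues, while genes such as Hesx1 mark the anterior side. Hox genes are switched on later, along the body axis.

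Total counts per library ran from 19020419 in ALSC 2 to 21627656 in AFSC 3. Levels are given as CPM, the counts scaled to a common library size with TMM factors, and a count of 3 in 1 library corresponds to 0.138 to 0.157 CPM, which is a counting limit only. The libraries numbered 1 stood apart from those numbered 2 and 3 in all 3 cell types. Deviations from the group means correlated at 0.515 to 0.615 between libraries 1 of different types. Between library 1 and libraries 2 or 3 of another type they correlated at -0.497 to -0.361. Deviations within a type cancel out, so these negative values follow in part from the positive ones. What a library number means is not stated in the labels, and counts of calls are therefore also given with the library number as a block and without the 3 libraries numbered 1. The fit without them was chosen after seeing the data and rests on libraries 2 and 3 of each type alone. Counts of libraries 2 and 3 of a type differed by 2.09 to 4.13 times the chi-square of counting noise. Those of library 1 and libraries 2 or 3 differed by 12.4 to 25.4 times. The p-values of that fit therefore measure the smaller spread only. All 8 pluripotent epiblast markers were at 1 CPM or more in every type. In ABSC, the trophoblast markers summed to 297 to 380 CPM, against 82.4 to 193 CPM in ALSC and 94.3 to 162 CPM in AFSC. At 1 CPM or more were 5 of these 10 markers in ABSC, 5 in ALSC and 4 in AFSC. Most of the sum in ABSC came from Hand1, and of the 6 markers tested Hand1 and Cdx2 rose in ABSC against both other types while Krt7 fell against both, averaging 0.891 CPM in ABSC, 2.67 CPM in ALSC and 2.67 CPM in AFSC. In ALSC against AFSC, Hand1 and Tfap2c rose and 0 of the 6 fell. Hand1 alone stood at 244, 208 and 188 CPM in ABSC, and Elf5 at 0.0491, 0 and 0.0506 CPM. Prl3d1 and Tpbpa had 0 counts in every library.

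Of the 41 homeobox genes, 20 were at 1 CPM or more in all 9 libraries and 11 were below 1 CPM in all 9. The genes at 1 CPM or more throughout, many of them broadly expressed co-factors and repressors, were Meis3, Pbx2, Pbx3, Pbx4, Pknox1, Tgif1, Tgif2, Irx3, Nkx1-2, Six4, Dlx3, Cux1, Satb1, Zfhx3, Zhx1, Zhx2, Zhx3, Adnp, Homez and Hmbox1. Per kilobase of gene length, Pbx2 averaged 25.5 ± 3.86 RPKM (CPM per kilobase) in ABSC, 26.0 ± 2.03 RPKM in ALSC and 23.8 ± 3.54 RPKM in AFSC (SD, n = 3 each). Tgif1, which encodes a repressor of SMAD and retinoid signalling, averaged 25.7 ± 2.75 RPKM in ABSC, 20.5 ± 1.26 RPKM in ALSC and 22.3 ± 2.41 RPKM in AFSC. Both stood far above all the others. In ABSC and AFSC they differed from each other by less than the SD of either, and in ALSC Pbx2 was the higher. Next came Pbx3, Tgif2, Hmbox1, Homez and Pknox1, whose means over all libraries lay between 3.93 and 4.82 RPKM, with SDs of 0.0805 to 1.19 RPKM within a type. The order of these 5 differed between the types, and Pbx3 and Tgif2 differed by less than the SD of Pbx3 in each. Msx1 and Mnx1 reached 3.29 ± 2.05 and 3.00 ± 0.165 RPKM in ABSC, close to the level of these factors, and were below 0.5 RPKM in the other cell types.

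**Figure D1:**
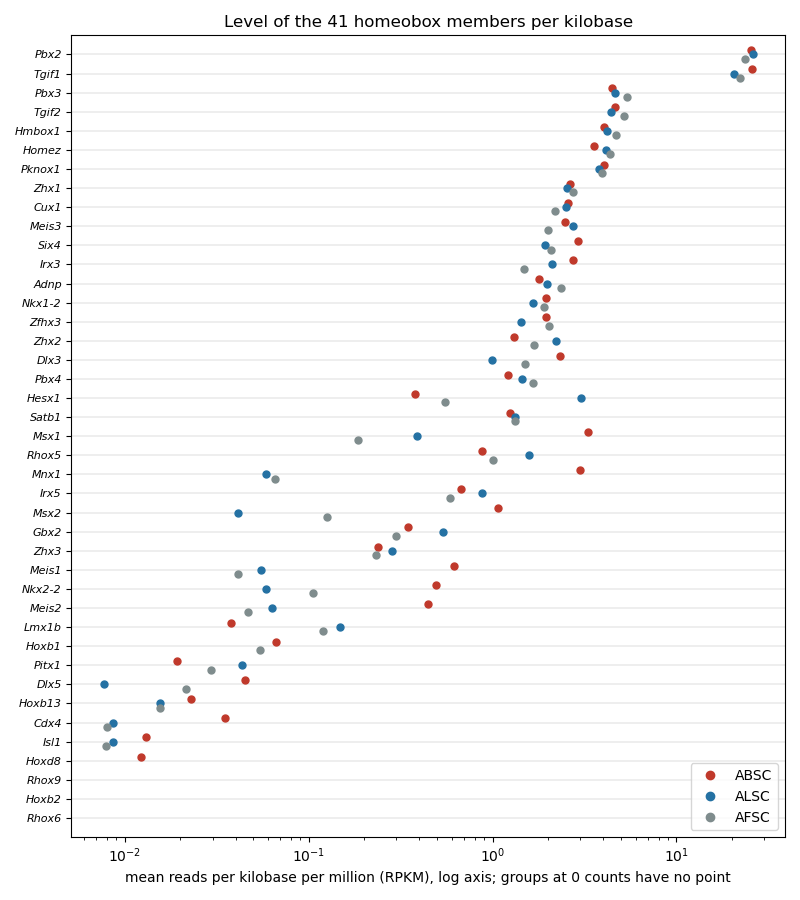
Mean level of each of the 41 homeobox genes in RPKM on a log axis, ordered by the mean over all libraries, with 1 point for each cell type (3 libraries each) and no point where a type had 0 counts. Pbx2 and Tgif1 stand at the top in all 3 types, while Msx1, Mnx1, Msx2, Meis1 and Meis2 have an ABSC point far to the right of the other points and Hesx1 has an ALSC point far to the right.

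The 11 genes below 1 CPM in all 9 libraries include many genes that pattern single organs or regions of the later embryo. Rhox6, Rhox9 and Hoxb2 had 0 counts everywhere, which allows up to 0.157 CPM in a library. How reads that match several places were counted is not given in the sources used here, which leaves the multigene Rhox family uncertain. Pitx1 (hindlimb and pituitary), Dlx5 (skeleton and branchial arches), Isl1 (heart and motor neurons), Cdx4 (an activator of Hox genes), Hoxb1 (hindbrain), Hoxb13 (tail bud and prostate) and Hoxd8 had counts but did not pass the filter on low counts. Their highest level in any library was 0.331 CPM, for Hoxb1 in AFSC 2. Lmx1b, needed for dorsal limb and kidney podocyte development, passed the filter and had 0.0982, 0.0523 and 0.405 CPM in ABSC, 0.505, 0.835 and 0.815 CPM in ALSC, and 0.567, 0.520 and 0.658 CPM in AFSC. The 3 ABSC libraries were all below the 6 others in Lmx1b, with a log2 fold change of -1.62 against AFSC and -1.91 against ALSC, but neither passed the test (edgeR adjusted p = 0.136 and 0.0575). With the library number as a block, both passed, at -1.65 and -1.95 (edgeR adjusted p = 0.0474 and 0.0135).

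In ABSC against AFSC, 5 homeobox genes rose and 0 fell among the 31 tested (16.1%, against 7.98% of all 16178 genes tested in either direction and 3.98% higher). The 5 were Mnx1, Msx1, Msx2, Meis1 and Meis2, and each stood at a low level in AFSC. In bulk RNA, a larger share of cells that express a gene and more RNA of it per cell cannot be told apart. Their log2 fold changes ran from 3.09 for Msx2 to 5.48 for Mnx1. Over all 31 genes the median log2 fold change was 0.04, beside -0.00 over all genes tested. Msx2 and Mnx1 passed the filter on low counts only through their level in ABSC, so that a difference was built into their being tested. The genes described here were chosen with earlier results of these data known, so their share called does not test the homeobox family. Of 43 further homeobox genes tested, outside the streak, pluripotency and Hox sets, 3 rose and 5 fell (18.6%). The tests are edgeR quasi-likelihood F tests on raw counts, with the Benjamini-Hochberg adjustment over all genes tested and a threshold of 0.05.

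Mnx1, which is needed for motor neuron identity and for the dorsal pancreas, lies at chr5:29473034-29478470 in the table, whose coordinates match GRCm38. It had 7.12, 6.38 and 6.78 CPM in ABSC, 0.138, 0.104 and 0.153 CPM in ALSC, and 0.206, 0.189 and 0.0470 CPM in AFSC. The ABSC libraries were alike, with a mean of 6.76 ± 0.371 CPM (SD, n = 3), and stood far above all other libraries, where the gene had few counts. Against AFSC, the log2 fold change was 5.48 (SE 0.34, edgeR adjusted p = 1.47e-05).

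Msx1 and Msx2 encode closely related repressors that act downstream of BMP signals in limb, tooth and neural crest development. Msx1 (chr5:37820485-37824583) had 3.00, 12.6 and 15.0 CPM in ABSC, 1.56, 0.940 and 1.12 CPM in ALSC, and 0.412, 0.850 and 0.470 CPM in AFSC. All ABSC libraries were above all others, but ABSC 1 was well below ABSC 2 and ABSC 3. The log2 fold change was 4.12 (SE 0.59, edgeR adjusted p = 0.00229). Without the 3 libraries numbered 1, on libraries 2 and 3 alone, the log2 fold change was 4.38 (edgeR adjusted p = 8.26e-14). That fit called 28.5% of all genes. For Msx1, the adjusted p ran from 8.26e-14 to 0.0202 over the 17 alternatives. Msx2 (chr13:53466884-53473074) had 2.95, 3.19 and 4.35 CPM in ABSC, 0.0459, 0.104 and 0.255 CPM in ALSC, and 0.618, 0.331 and 0.282 CPM in AFSC. Here ABSC 1 was close to ABSC 2, and the groups did not overlap. Its log2 fold change was 3.09 (SE 0.40, edgeR adjusted p = 0.00124).

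Meis1 and Meis2 encode TALE co-factors of Hox and Pbx proteins. Meis1 (chr11:18879817-19018985), known for its role in blood stem cells, had 5.30, 7.11 and 6.98 CPM in ABSC, 0.597, 0.627 and 0.509 CPM in ALSC, and 0.412, 0.236 and 0.658 CPM in AFSC. The 3 ABSC libraries stood far above the 6 others. Its log2 fold change was 3.87 (SE 0.32, edgeR adjusted p = 8.34e-05). Meis2 (chr2:115863064-116065839), which acts in heart, limb and neural crest, had 1.57, 6.75 and 7.79 CPM in ABSC, 0.322, 1.10 and 0.866 CPM in ALSC, and 0.361, 0.803 and 0.517 CPM in AFSC. As for Msx1, ABSC 1 was far below ABSC 2 and ABSC 3, yet above every AFSC library. The log2 fold change was 3.24 (SE 0.63, edgeR adjusted p = 0.0110), and leaving out AFSC 3 ended this call (edgeR adjusted p = 0.0579). Without the 3 libraries numbered 1, on libraries 2 and 3 alone, the log2 fold change was 3.46 (edgeR adjusted p = 8.78e-11). For Meis2, the adjusted p ran from 8.78e-11 to 0.0579 over the 17 alternatives.

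**Figure D2:**
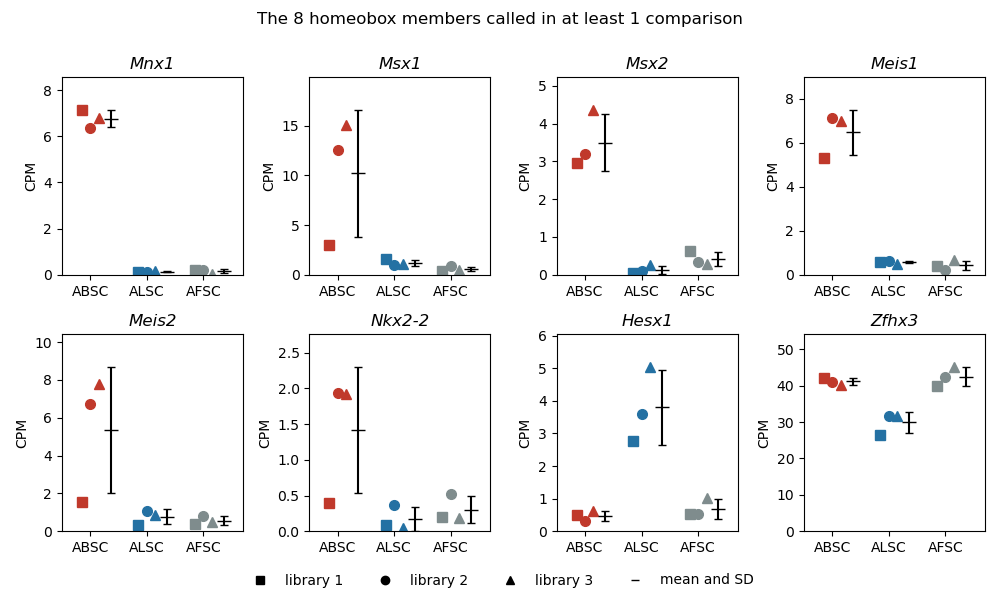
CPM on linear axes that start at 0 for the 8 homeobox genes called in at least 1 comparison, with 1 symbol for each library (square, circle and triangle for libraries 1, 2 and 3) and a bar for the mean and SD of the 3 libraries. The ABSC symbols of Mnx1, Msx2 and Meis1 lie close together and far above the rest, the square of ABSC 1 lies low for Msx1, Meis2 and Nkx2-2, and the ALSC symbols lie highest for Hesx1 and lowest for Zfhx3.

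The promoters of these 5 genes are shown because all 5 rose in ABSC, and that of Hesx1 because it was the homeobox gene that rose in ALSC. Each is 300 bases from RefSeq on GRCm38.p6, from 250 before to 50 after the start of transcription, written 5′ to 3′ on the strand of the gene, with capitals marking each CG dinucleotide. CG dinucleotides are the sites of DNA methylation in mammals and cluster in the promoters of many developmental genes.
Mnx1 (chr5:29478421-29478720, minus strand): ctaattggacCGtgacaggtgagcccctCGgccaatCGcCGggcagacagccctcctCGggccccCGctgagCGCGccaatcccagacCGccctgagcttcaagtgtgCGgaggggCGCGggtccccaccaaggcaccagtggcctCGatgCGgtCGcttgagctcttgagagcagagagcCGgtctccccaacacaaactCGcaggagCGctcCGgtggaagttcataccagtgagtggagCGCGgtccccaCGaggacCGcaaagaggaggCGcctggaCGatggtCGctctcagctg
Msx1 (chr5:37824536-37824835, minus strand): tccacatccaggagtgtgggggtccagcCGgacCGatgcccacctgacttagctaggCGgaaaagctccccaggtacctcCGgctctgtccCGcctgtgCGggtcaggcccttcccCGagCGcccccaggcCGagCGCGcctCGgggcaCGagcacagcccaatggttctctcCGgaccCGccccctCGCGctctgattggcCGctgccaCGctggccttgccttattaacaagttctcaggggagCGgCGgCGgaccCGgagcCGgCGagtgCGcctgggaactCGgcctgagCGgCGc
Msx2 (chr13:53472731-53473030, minus strand): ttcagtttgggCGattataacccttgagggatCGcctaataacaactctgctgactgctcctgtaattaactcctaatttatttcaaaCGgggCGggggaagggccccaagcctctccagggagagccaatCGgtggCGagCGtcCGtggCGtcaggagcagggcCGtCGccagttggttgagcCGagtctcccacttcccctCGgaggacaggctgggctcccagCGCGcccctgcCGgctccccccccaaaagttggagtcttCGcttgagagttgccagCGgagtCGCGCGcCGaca
Meis1 (chr11:19018920-19019219, minus strand): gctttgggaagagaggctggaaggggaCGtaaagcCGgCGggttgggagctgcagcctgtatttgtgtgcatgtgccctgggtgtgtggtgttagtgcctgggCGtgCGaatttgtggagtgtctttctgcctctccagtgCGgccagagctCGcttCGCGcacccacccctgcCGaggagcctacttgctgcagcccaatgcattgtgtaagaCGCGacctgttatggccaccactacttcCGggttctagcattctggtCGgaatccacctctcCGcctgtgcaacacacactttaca
Meis2 (chr2:116064570-116064869, minus strand): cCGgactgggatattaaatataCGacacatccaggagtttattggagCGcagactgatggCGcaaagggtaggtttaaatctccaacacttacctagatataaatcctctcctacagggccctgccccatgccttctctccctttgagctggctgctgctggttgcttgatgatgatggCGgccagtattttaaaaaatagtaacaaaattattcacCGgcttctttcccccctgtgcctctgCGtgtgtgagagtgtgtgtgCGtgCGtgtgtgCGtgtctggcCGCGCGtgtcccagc
Hesx1 (chr14:27000112-27000411, plus strand): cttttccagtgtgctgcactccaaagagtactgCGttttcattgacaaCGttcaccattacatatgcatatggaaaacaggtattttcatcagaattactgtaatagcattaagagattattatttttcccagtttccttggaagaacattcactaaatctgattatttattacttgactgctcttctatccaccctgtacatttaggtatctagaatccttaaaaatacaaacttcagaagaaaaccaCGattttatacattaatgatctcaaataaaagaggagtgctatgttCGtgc
The numbers of CG dinucleotides were 26 in Mnx1, 29 in Msx1, 22 in Msx2, 15 in Meis1, 13 in Meis2 and 4 in Hesx1, beside a median of 7 over all 32851 promoters of 27025 genes in the RefSeq table. The Hesx1 promoter was AT-rich, with 33.7% G and C. The RefSeq start lay 294, 1220 and 5946 bases downstream of the start in the table for Msx2, Meis2 and Hesx1, so these windows lie inside the genes as the table has them. Over 37 promoters matched for 28 of the 41 homeobox genes, the median was 19. GGCGCC, a GC-rich element bound by SMAD1 and SMAD5, was searched on both strands and occurred in 5 of the 37 promoters, among them Mnx1 at position 272 of the sequence above, and in 11.9% of all promoters. TTCNNNGAA, the element of STAT3, occurred in 1 of the 37, a promoter of Tgif1, and in 8.30% of all. None of the windows of Msx1, Msx2, Meis1, Meis2 and Hesx1 held either motif.

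With the library number as a block, 10 homeobox genes rose and 2 fell in ABSC against AFSC, against 19.4% of all genes called in that fit, 9.58% higher and 9.78% lower. All 5 genes above were among them. The added calls were Nkx2-2 (log2 fold change 2.19, edgeR adjusted p = 0.00393), Irx3 (log2 fold change 0.82, edgeR adjusted p = 0.0466), Dlx3 (log2 fold change 0.68, edgeR adjusted p = 0.0104), Six4 (log2 fold change 0.47, edgeR adjusted p = 0.0305) and Cux1 (log2 fold change 0.22, edgeR adjusted p = 0.0223), all higher, and Lmx1b and Adnp (log2 fold change -0.38, edgeR adjusted p = 0.0373), both lower. Without the 3 libraries numbered 1, 11 rose and 5 fell, against 28.5% of all genes, 14.5% higher and 13.9% lower, again with all 5 among them; the added genes were Nkx2-2, Tgif1, Six4, Dlx3, Irx3 and Cux1, higher, and Pbx3, Pbx4, Satb1, Homez and Hmbox1, lower. Leaving out ABSC 1 alone, with no block, gave 7 higher and 2 lower, against 10.1% of all genes. In the fit without a block, 9 of 31 had ABSC and AFSC libraries that did not overlap, 6 higher and 3 lower, against 27.4% of all genes, 13.9% higher and 13.5% lower.

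Markers of other tissues that use these genes were looked at beside them. Surface ectoderm and amnion markers summed to 152 to 176 CPM in ABSC, against 81.0 to 85.5 CPM in ALSC and 116 to 122 CPM in AFSC. Of 8, 2 were at 1 CPM or more in ABSC, 2 in ALSC and 3 in AFSC; Krt18 and Grhl2 made up most of it, and Krt5 and Trp63 averaged 0.137 and 0.258 CPM in ABSC. Mesoderm and extraembryonic mesoderm markers summed to 8.25 to 12.1 CPM in ABSC, 5.86 to 6.29 CPM in ALSC and 3.43 to 4.53 CPM in AFSC, and Hand2 had 0 counts in ALSC and AFSC. Most of that sum in ABSC came from Tbx20, at 7.12 CPM in ABSC, 0.706 CPM in ALSC and 1.30 CPM in AFSC. Of the 5 mesoderm markers tested, Tbx20 rose and Pdgfra and Gata4 fell in ABSC against ALSC, with a median log2 fold change of -0.14 over the list. Neural crest markers overlapped between ABSC, at 57.1 to 70.5 CPM, and AFSC, at 46.9 to 68.8 CPM, and lay at 31.3 to 45.2 CPM in ALSC. Neural ectoderm markers lay at 369 to 400 CPM in ABSC, 352 to 443 CPM in ALSC and 406 to 412 CPM in AFSC, with 2 of 7 at 1 CPM or more in each. Fibroblast markers lay at 8.96 to 17.7 CPM in ABSC, 9.83 to 23.8 CPM in ALSC and 17.0 to 18.7 CPM in AFSC. The part of the trophoblast, surface ectoderm and mesoderm markers in the results on homeobox genes was not tested.

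In ALSC against AFSC, 1 homeobox gene rose and 1 fell among the 31 tested (6.45%, against 7.04% of all genes tested, 3.54% higher and 3.50% lower), a share near the background. Hesx1 rose and Zfhx3 fell. The median log2 fold change over the 31 was -0.06, beside 0.00 over all genes tested. ALSC were compared with the same 3 AFSC libraries as ABSC, so both comparisons rest in part on the same values.

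Hesx1 (chr14:26994416-27002329) encodes a repressor of the anterior head and pituitary that is also expressed in pluripotent cells. It had 0.491, 0.314 and 0.607 CPM in ABSC, 2.76, 3.60 and 5.04 CPM in ALSC, and 0.515, 0.520 and 1.03 CPM in AFSC. Every ALSC library was above all others, and ABSC and AFSC libraries overlapped. In ALSC the log2 fold change was 2.44 (SE 0.36, edgeR adjusted p = 0.00422). Zfhx3 (chr8:107942644-108961630), a large factor with zinc fingers and several homeodomains, had 42.2, 41.1 and 40.2 CPM in ABSC, 26.5, 31.6 and 31.6 CPM in ALSC, and 40.0, 42.3 and 45.2 CPM in AFSC. Its ALSC libraries lay below all others by a small margin, and ABSC and AFSC overlapped. The log2 fold change was -0.51 (SE 0.09, edgeR adjusted p = 0.0103); leaving out AFSC 2 or AFSC 3 ended this call (edgeR adjusted p of up to 0.0606), while it held under the other 15 alternatives. Zfhx3 overlaps Gm38042 on the same strand, a gene of 114 counts in all, beside 6875 for Zfhx3.

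With the library number as a block, 3 homeobox genes rose and 2 fell in ALSC, against 22.2% of all genes, 11.1% higher and 11.1% lower: Hesx1 and Zfhx3, together with Meis3 (log2 fold change 0.46, edgeR adjusted p = 0.0422), Cux1 (log2 fold change 0.19, edgeR adjusted p = 0.0419) and Dlx3 (log2 fold change -0.56, edgeR adjusted p = 0.0404). Without the libraries numbered 1, 6 rose and 2 fell, against 25.4% of all genes, 12.0% higher and 13.4% lower, with Hesx1 and Zfhx3 among them; the added genes were Pbx2, Gbx2, Irx3, Irx5 and Cux1, higher, and Hmbox1, lower. Leaving out AFSC 2 or AFSC 3 alone left 1 call, Hesx1, while the share of all genes called fell to 2.11% without AFSC 2 and 2.08% without AFSC 3. ALSC and AFSC libraries did not overlap for 8 of the 31, 4 higher and 4 lower, against 28.5% of all genes, 14.7% higher and 13.8% lower. The 5 genes that rose in ABSC gave wide intervals here: the 95% interval of the ALSC log2 fold change was -1.31 to 1.03 for Mnx1, -0.38 to 2.50 for Msx1, -2.86 to -0.28 for Msx2, -0.43 to 1.23 for Meis1 and -1.16 to 1.98 for Meis2. Every ALSC library was below every AFSC library in Msx2 (log2 fold change -1.57, edgeR adjusted p = 0.143) and above every AFSC library in Msx1 (log2 fold change 1.06, edgeR adjusted p = 0.393), and neither passed the test.

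The direct comparison of ABSC with ALSC, which share no library, gave 7 rises and 1 fall among the 31 (25.8%, against 11.0% of all genes tested, 5.41% higher and 5.56% lower). Mnx1, Msx1, Msx2, Meis1 and Meis2 rose in ABSC, as did Nkx2-2 and Zfhx3, and Hesx1 fell. Mnx1 and Msx2 passed the filter on low counts only through ABSC, and Nkx2-2 only through ABSC and AFSC. A difference from ALSC was thus built into the testing of these genes. The homeobox genes were also chosen with earlier results of these data known. Of 43 further homeobox genes tested, outside the streak, pluripotency and Hox sets, 4 rose and 5 fell (20.9%). Over the 31, the median log2 fold change was 0.03, beside -0.01 over all genes tested. The log2 fold changes in ABSC were 5.61 for Mnx1, 4.66 for Msx2, 3.47 for Meis1, 3.06 for Msx1 and 2.82 for Meis2, with edgeR adjusted p of 9.93e-06, 0.000267, 0.000103, 0.00623 and 0.0159 in that order. The call of Meis2 was lost without ABSC 2, without ABSC 3 and with no filter on low counts (edgeR adjusted p of up to 0.0592). For Hesx1 the log2 fold change was -2.99 (SE 0.38, edgeR adjusted p = 0.00105), and for Zfhx3 the log2 fold change was 0.46 (SE 0.09, edgeR adjusted p = 0.0103).

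Nkx2-2 (chr2:147177546-147194243), which acts downstream of Hedgehog signals in the ventral neural tube and in pancreatic islets, had 0.393, 1.93 and 1.92 CPM in ABSC, 0.0919, 0.365 and 0.0509 CPM in ALSC, and 0.206, 0.520 and 0.188 CPM in AFSC. ABSC 2 and ABSC 3 were above every other library, but ABSC 1 was below AFSC 2. Against ALSC the log2 fold change was 3.04 (SE 0.77, edgeR adjusted p = 0.0320), and this call was lost in the fits without ABSC 2, ABSC 3, ALSC 1 or ALSC 3 (edgeR adjusted p of up to 0.112). Against AFSC it did not pass the test (log2 fold change 2.18, edgeR adjusted p = 0.0943). The gene reached the level that the filter on low counts asks for in 2 ABSC libraries and 1 AFSC library only. A difference from ALSC was thus built into its being tested.

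With the library number as a block, 10 homeobox genes rose and 3 fell in ABSC against ALSC, against 28.5% of all genes, 14.2% higher and 14.3% lower. The added calls were Dlx3 (log2 fold change 1.24, edgeR adjusted p = 0.000127), Six4 (log2 fold change 0.58, edgeR adjusted p = 0.00772) and Tgif1 (log2 fold change 0.32, edgeR adjusted p = 0.00728), all higher, and Lmx1b and Zhx2 (log2 fold change -0.74, edgeR adjusted p = 0.00352), both lower. Without the libraries numbered 1, 10 rose and 5 fell, against 32.2% of all genes, 16.8% higher and 15.4% lower, and all 8 calls made without a block were kept; the added genes were Tgif1, Six4 and Dlx3, higher, and Pbx3, Lmx1b, Zhx2 and Homez, lower. ABSC and ALSC libraries did not overlap for 11 of the 31, 8 higher and 3 lower in ABSC, against 28.9% of all genes, 13.9% higher and 15.1% lower.

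**Figure D3:**
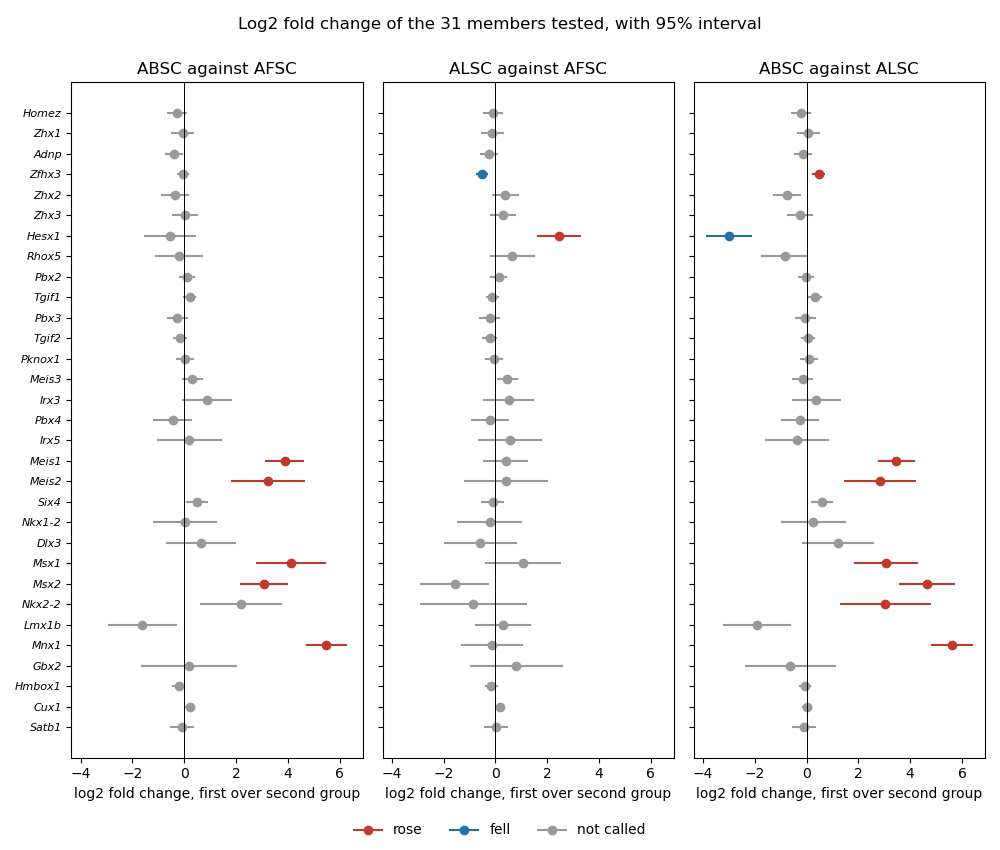
Log2 fold change with its 95% interval for the 31 homeobox genes tested, in 1 panel for each comparison, with the first group named over the second; red marks a rise, blue a fall and grey a gene not called. The red points are the 5 genes of ABSC against AFSC at 3.09 to 5.48, Hesx1 in ALSC against AFSC, and 7 genes in ABSC against ALSC; most grey points of well counted genes lie close to 0 with short intervals.

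The other TALE genes were not called in any comparison by the fit of all 9 libraries without a block. With the block, Irx3 (ABSC against AFSC), Meis3 (ALSC against AFSC) and Tgif1 (ABSC against ALSC) passed the test, with the values given above. Without the libraries numbered 1, Pbx3, Pbx4, Tgif1 and Irx3 passed in ABSC against AFSC, Pbx2, Irx3 and Irx5 in ALSC against AFSC, and Pbx3 and Tgif1 in ABSC against ALSC. Pbx2, Pbx3 and Pbx4 encode partners of Meis and Hox proteins. Pbx2 had 109, 83.9 and 85.5 CPM in ABSC, 102, 93.7 and 87.6 CPM in ALSC, and 101, 78.0 and 80.2 CPM in AFSC. The 3 types overlapped throughout, with the highest value of each in library 1. By the fit without the libraries numbered 1, its log2 fold change in ALSC against AFSC was 0.19 (edgeR adjusted p = 0.00758). Pbx3 had 35.4, 21.5 and 24.6 CPM in ABSC, 30.0, 28.7 and 25.8 CPM in ALSC, and 35.7, 31.7 and 31.4 CPM in AFSC, with ABSC overlapping both other types and ALSC below AFSC (log2 fold change -0.22, edgeR adjusted p = 0.488). Pknox1, a further Pbx partner whose gene bounds differ between the table and the GRCm38 annotation, had 33.0, 27.2 and 23.6 CPM in ABSC, 28.7, 25.3 and 24.5 CPM in ALSC, and 30.9, 24.1 and 26.7 CPM in AFSC. For these 3 genes the 95% interval of the ABSC log2 fold change against AFSC was -0.18 to 0.38, -0.64 to 0.09 and -0.27 to 0.35, so that a change of more than 1 on the log2 scale lay outside each. Without the libraries numbered 1, the log2 fold change of Pbx3 in ABSC was -0.45 (edgeR adjusted p = 0.000257) against AFSC and -0.23 (edgeR adjusted p = 0.0478) against ALSC. Pbx4 ranged from 1.78 to 4.50 CPM and Meis3 from 5.87 to 9.69 CPM. Every ALSC library was above every AFSC library in Meis3, but the log2 fold change of 0.46 passed the test with the block (edgeR adjusted p = 0.133 without it and 0.0422 with it).

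Tgif1 had 162, 134 and 137 CPM in ABSC, 110.0, 123 and 113 CPM in ALSC, and 141, 116 and 119 CPM in AFSC. Each ABSC library was above each ALSC library, with a log2 fold change of 0.32 (edgeR adjusted p = 0.0598 without the block and 0.00728 with it). Tgif2, its close relative, had 19.1, 17.5 and 16.6 CPM in ABSC, 17.3, 16.7 and 17.0 CPM in ALSC, and 22.2, 19.2 and 18.0 CPM in AFSC, and every ALSC library lay below every AFSC library with a log2 fold change of -0.22 (edgeR adjusted p = 0.280). On the opposite strand, 2 genes overlap Tgif2, with 365 and 269 counts in all beside its 3303, and the kit does not keep the strand. Irx3, an Iroquois gene of neural and limb patterning, had 4.13, 8.21 and 10.4 CPM in ABSC, 2.66, 8.46 and 6.37 CPM in ALSC, and 3.86, 3.69 and 4.70 CPM in AFSC. Its library 1 was the lowest in ABSC and in ALSC, and the ABSC log2 fold change against AFSC was 0.89 (edgeR adjusted p = 0.268), and it was 1.15 (edgeR adjusted p = 1.42e-05) without the libraries numbered 1. Irx5, 556 kb from Irx3 on chromosome 8, ranged from 0.919 to 3.67 CPM and was likewise lowest in ABSC 1, ALSC 1 and AFSC 1 within each type.

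Among the NK-like and distal-less genes, Dlx3, which the mouse needs to form the placenta, had 10.4, 3.82 and 4.05 CPM in ABSC, 4.50, 1.51 and 1.78 CPM in ALSC, and 7.16, 1.98 and 2.63 CPM in AFSC. Library 1 was far above libraries 2 and 3 in each type, and within each number ABSC was above AFSC and AFSC above ALSC. The fit without a block gave a log2 fold change of 0.64 for ABSC against AFSC (edgeR adjusted p = 0.639) and 1.22 for ABSC against ALSC (edgeR adjusted p = 0.235). Nkx1-2, a gene of the caudal epiblast, ranged from 1.56 CPM in ALSC 1 to 8.91 CPM in ABSC 3, and library 1 was the lowest of each type. It shares its strand with the overlapping gene Fgfr2, which had 1870 counts in all beside 1083. Gbx2, a hindbrain gene and in mouse embryonic stem cells a target of LIF signals, ranged from 0.138 CPM in ALSC 1 to 2.09 CPM in ALSC 2. The 95% interval of its log2 fold change in ALSC against AFSC, -0.94 to 2.55, covers both directions widely. Without the libraries numbered 1, where Gbx2 was lowest, the log2 fold change in ALSC was 0.98 (edgeR adjusted p = 0.0434) and passed the test.

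Six4, a sine oculis gene of muscle and sensory placodes, had 22.5, 36.8 and 35.9 CPM in ABSC, 18.1, 22.1 and 22.8 CPM in ALSC, and 23.7, 23.2 and 20.9 CPM in AFSC. ABSC 2 and ABSC 3 were the highest of all libraries and ABSC 1 lay within the range of AFSC; the ABSC log2 fold change was 0.49 against AFSC (edgeR adjusted p = 0.138) and 0.60 against ALSC (edgeR adjusted p = 0.0584). Cux1, a CUT-class repressor, had 53.8, 50.4 and 49.8 CPM in ABSC, 49.8, 52.3 and 48.8 CPM in ALSC, and 46.0, 42.1 and 43.9 CPM in AFSC. AFSC lay below both other types without overlap, by a small margin: the log2 fold change was 0.22 in ABSC (edgeR adjusted p = 0.0889) and 0.19 in ALSC (edgeR adjusted p = 0.138). Satb1, a chromatin organiser, had 30.4, 21.1 and 19.2 CPM in ABSC, 31.1, 24.2 and 20.5 CPM in ALSC, and 27.4, 23.1 and 24.9 CPM in AFSC, with library 1 the highest of each type and overlap between all types.

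The zinc finger homeobox group was expressed in all types. Adnp, which is part of a chromatin remodelling complex, had 8.45, 10.04 and 10.4 CPM in ABSC, 9.88, 12.3 and 9.73 CPM in ALSC, and 13.0, 13.0 and 11.7 CPM in AFSC. ABSC lay below AFSC without overlap, with a log2 fold change of -0.38 (edgeR adjusted p = 0.145). Zhx1, Zhx2 and Zhx3 form a small family of repressors, and Zhx1 and Zhx2 lie 207 kb apart on chromosome 15. Zhx1 had 13.8, 15.3 and 18.8 CPM in ABSC, 12.3, 19.5 and 14.0 CPM in ALSC, and 15.0, 17.7 and 17.1 CPM in AFSC. Zhx2 had 6.48, 6.17 and 4.76 CPM in ABSC, 13.2, 8.67 and 7.54 CPM in ALSC, and 7.88, 6.66 and 7.94 CPM in AFSC. All ABSC libraries were below all ALSC libraries in Zhx2, with a log2 fold change of -0.76 (edgeR adjusted p = 0.0552), whereas the types overlapped in Zhx1. Zhx3 ranged from 2.79 to 4.46 CPM; its 606 counts stand beside 15743 for Plcg1, which overlaps it on the opposite strand, so its own level is uncertain.

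Homez, which has homeodomains and a leucine zipper, had 27.0, 19.0 and 16.9 CPM in ABSC, 25.6, 24.9 and 22.5 CPM in ALSC, and 25.6, 24.3 and 27.3 CPM in AFSC. Hmbox1, which binds telomeric repeats, had 42.7, 36.7 and 38.3 CPM in ABSC, 42.6, 42.4 and 37.2 CPM in ALSC, and 42.4, 48.5 and 45.3 CPM in AFSC. In both genes ABSC 2 and ABSC 3 lay below every AFSC library, but neither passed the test in the fit of all 9 libraries without a block, with log2 fold changes of -0.29 and -0.21 (edgeR adjusted p = 0.347 and 0.230). Rhox5, an X-linked gene of extraembryonic and reproductive tissues, ranged from 0.393 to 1.61 CPM, with overlap between all types; Rhox6, 18.0 kb away, was at 0.

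Several homeobox genes differed between library 1 and the other libraries of a type by more than 1 on the log2 scale. On the log2(CPM + 0.5) scale, Dlx3 in library 1 was above the mean of libraries 2 and 3 by 1.30 in ABSC, 1.22 in ALSC and 1.46 in AFSC. Nkx1-2 differed by -1.50 in ABSC, -1.92 in ALSC and -0.31 in AFSC. For Gbx2 the difference was -1.01 in ABSC, -1.75 in ALSC and -0.83 in AFSC, and for Irx5 it was -1.11 in ABSC, -1.54 in ALSC and -0.43 in AFSC. Msx1 differed by -2.03 in ABSC, 0.43 in ALSC and -0.33 in AFSC, and Meis2 by -1.90 in ABSC, -0.85 in ALSC and -0.42 in AFSC. The difference of Nkx2-2 was -1.44 in ABSC, -0.22 in ALSC and -0.25 in AFSC. That of Irx3 was -1.07 in ABSC, -1.31 in ALSC and -0.10 in AFSC. Mnx1, Msx2 and Meis1 differed in ABSC by only 0.11, -0.30 and -0.38. Library 1 was the highest of its type in all 3 types for 6 of the 31 genes (Pbx2, Pbx3, Pknox1, Tgif2, Dlx3 and Satb1; 19.4%, against 21.5% of all genes tested). It was the lowest in all 3 types for 5 (Meis2, Nkx1-2, Gbx2, Irx5 and Zhx1; 16.1%, against 20.2% of all genes tested). Both shares were near those of all genes.

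**Figure D4:**
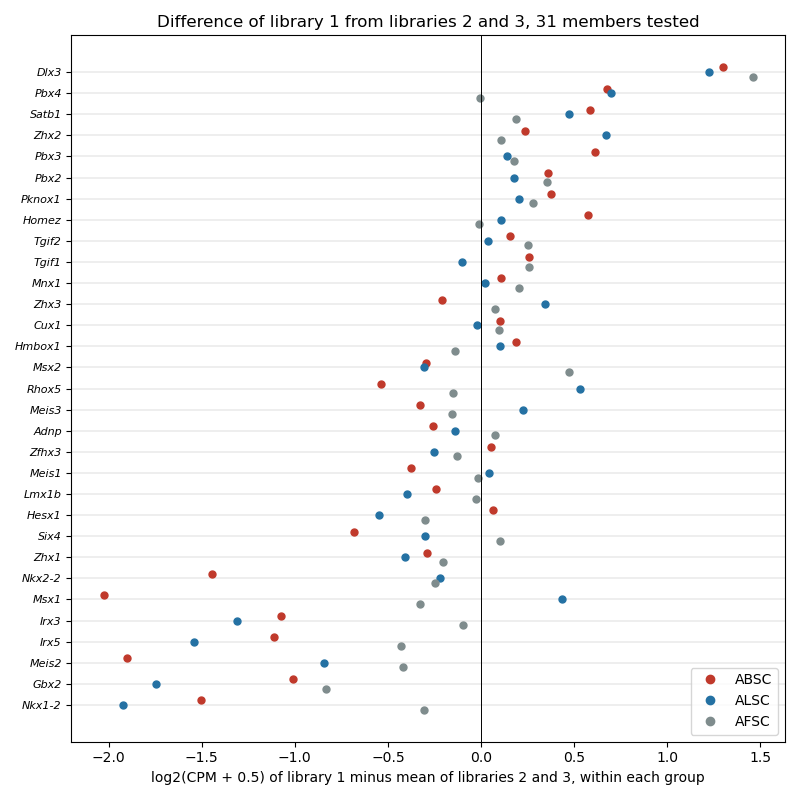
Difference of library 1 from the mean of libraries 2 and 3 on the log2(CPM + 0.5) scale for the 31 homeobox genes tested, with 1 point for each cell type. Dlx3 lies between 1.22 and 1.46 in all 3 types, and Nkx1-2, Gbx2, Meis2 and Irx5 lie below 0 in all 3.

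Other homeobox genes and BMP targets give the setting. Of 11 homeobox factors of the streak and of pluripotency, 10 were tested; 4 rose and 5 fell in ABSC against AFSC, 2 rose and 2 fell in ALSC against AFSC, and 4 rose and 5 fell in ABSC against ALSC. Of the 39 genes of the Hox clusters, 1 was tested, Hoxd13, which averaged 0.595 CPM in ABSC, 0.251 CPM in ALSC and 0.781 CPM in AFSC and was not called. Of 147 other homeobox genes, 43 were tested, of which 3 rose and 5 fell in ABSC against AFSC, 2 rose and 4 fell in ALSC against AFSC, and 4 rose and 5 fell in ABSC against ALSC. Among 10 BMP target genes outside the family, 7 were tested; 5 rose in ABSC against AFSC (Id1, Id2, Id4, Smad6 and Bambi) and 0 fell, 1 fell in ALSC against AFSC (Id2), and 5 rose in ABSC against ALSC (Id1, Id2, Id4, Smad6 and Smad7) and 0 fell. Over the 7 BMP targets tested, the median log2 fold change in ABSC against AFSC was 1.68. The BMP target Id1, a gene whose product blocks bHLH factors, had a log2 fold change of 4.85 there, beside 4.12 for Msx1 and 3.09 for Msx2. Of all genes tested, 7.98% were called in ABSC against AFSC, 7.04% in ALSC against AFSC and 11.0% in ABSC against ALSC.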

How the data were processed

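Poly-A RNA was made into libraries with an unstranded NEBNext Ultra kit, per the labels' protocols, so reads of overlapping genes cannot be told apart by strand. Overlaps were taken from whole gene bounds, and overlap of exons was not checked. The series record names another HiSeq model than the protocol, and a second RNA kit is named for ALSC. If that kit was used for ALSC only, kit and cell type cannot be told apart in the comparisons with ALSC. Values are the raw read counts per gene that the authors deposited. The submitters' processing notes name HISAT2 2.0.5 and featureCounts 1.5.0-p3. They also name mm9, while 98.3% of the Ensembl genes of the table have GRCm38 coordinates. The 346 entries without an Ensembl ID, 0.208% to 0.227% of the counts of a library, were left out.

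Tests used edgeR 4.0.16 in R 4.3.3: filterByExpr (minimum count 10, minimum total 15), TMM factors of 0.963 to 1.06, and 1 robust quasi-likelihood fit over 9 libraries with 6 residual degrees of freedom. DESeq2 1.42.0 was an alternative. The intervals are 95% intervals from that fit. CPM and RPKM were computed from the deposited counts and the gene lengths of the table. The fit was also run on simulated counts that held no effect of the library number, so that run says nothing about this feature of the data. The members and lists were chosen with earlier results of these data known. Values of every library are given for genes called in at least 1 comparison or at 10 CPM or more in any library.

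The library numbers served as a block in an alternative fit only, and the main fit had no block. Deviations from the group means correlated at 0.249 to 0.615 between libraries of the same number, each above the 0.1 asked for. Libraries 2 and 3 correlated with each other at 0.273 to 0.331. That is close to the 0.249 to 0.358 between libraries numbered 2 and the 0.289 to 0.432 between libraries numbered 3. Deviations within a type cancel out, so the positive values among libraries 2 and 3 follow in part from those of libraries 1. The correlations set libraries 1 apart but do not show that numbers 2 and 3 pair libraries. No library was a copy of another: counts of libraries of one type differed by 2.09 to 25.4 times the chi-square of counting noise.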

Additional observations from a re-analysis of the deposited data

How the results depend on the processing

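Counts of called homeobox genes moved most with the handling of the library numbers. With the number as a replicate block, 12 of the 31 tested were called in ABSC against AFSC, 5 in ALSC against AFSC and 13 in ABSC against ALSC. Without the block, 5, 2 and 8 were called. Of all genes, 19.4%, 22.2% and 28.5% were called with the block, against 7.98%, 7.04% and 11.0% without it. Leaving out the 3 libraries numbered 1, an alternative chosen after seeing the data, gave 16, 8 and 15, with 28.5%, 25.4% and 32.2% of all genes called. The homeobox counts thus moved together with those of all genes. Leaving out each library in turn gave 4 to 9, 1 to 2 and 6 to 10, with 4.03% to 10.4%, 2.08% to 9.19% and 5.09% to 14.1% of all genes called. Without a filter on low counts 38 were tested, with 5, 2 and 11 calls (4.23%, 3.81% and 5.55% of all genes); DESeq2, also on 38, gave the same counts (5.15%, 4.99% and 6.92% of all genes). Of 15 calls of single genes, 11 were kept under all alternatives run, 17 for each gene, and 4 were lost under some: Meis2 against AFSC and against ALSC, Zfhx3 in ALSC against AFSC, and Nkx2-2 in ABSC against ALSC, which was not tested in the fit of 2 groups only. The block ended none of the 15 calls, and none of them changed direction under any alternative. Scaling by library size alone moved the median log2 fold change of all genes by under 0.1 and left the homeobox counts unchanged, but moved the split of all genes called in ABSC against ALSC to 615 higher and 1135 lower, against 875 and 900. Of 31 ranks by level, 27 moved when gene length was not divided out. Depth limits the 11 genes below 1 CPM, where absence of a call says little.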
